A study of Rattus norvegicus with 145 samples.

Results

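Male Wistar rats given acetamide at 300 mg/kg/day (mkd) in experiment A are described against the vehicle rats of that experiment, 10 liver libraries of the 145 in the series. The members were taken from the labels: 5 rats at 300 mkd and 5 rats given water, with no measured value used to choose them. All were male Hsd:WI rats aged 9 to 10 weeks, gavaged daily for 7 days, and RNA-Seq was performed on the left liver lobe, which was collected after an overnight fast. Neither group carried a transgene or any agent besides acetamide or water. Experiment A also held 5 rats each at 30, 100 and 1000 mkd, and 5 vehicle and 5 males at 300 mkd were dosed for the same time in experiment B. Those males were Crl:WI rats aged 8 to 10 weeks.

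Acetamide is a small amide that causes liver tumors in rats at high doses. In the adult liver few hepatocytes divide, so transcripts for DNA replication and mitosis are low and rise together when cells enter the cycle. Interferon induces a second set of genes together, through response elements in their promoters. Hebp2 encodes a heme-binding protein of the SOUL family, of which Hebp1 is the other member examined here.

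Reads assigned to genes ranged from 27094716 to 37001581 per vehicle rat and from 27056129 to 31811270 per rat at 300 mkd. The hepatocyte transcript Alb lay between 175406 and 253082 CPM (read counts scaled to a common library total) in the 10 rats, and none of the 12 hepatocyte markers had an unadjusted p under 0.05. No pair of libraries was identical. Unless another fit is named, the p-values at 300 mkd measure the spread between rats as estimated over all 25 rats of experiment A, every dose included.

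At 300 mkd no differentially expressed gene (DEG) was found. A gene counted as a DEG where its fold change reached 1.5 in either direction and its p, adjusted by the method of Benjamini and Hochberg, was 0.05 or less in edgeR's quasi-likelihood test. Of 11323 genes tested, 0 met both criteria, a percentage called of 0, and 0 met the relaxed criteria of 1.4 and 0.1. An unadjusted p under 0.05 was found for 218 genes (1.93% of those tested), 107 of them higher (0.945%) and 111 lower (0.98%) at 300 mkd. DESeq2 called 2 genes of 14583 (0.0137%), Hebp2 and RGD1560242, and gave 275 genes an unadjusted p under 0.05 (1.89%). Limma-voom called 0 genes and gave 589 an unadjusted p under 0.05. After Hebp2, whose adjusted p was 0.101, every gene had an edgeR adjusted p of 1.00 to 3 digits.

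**Figure D1:**
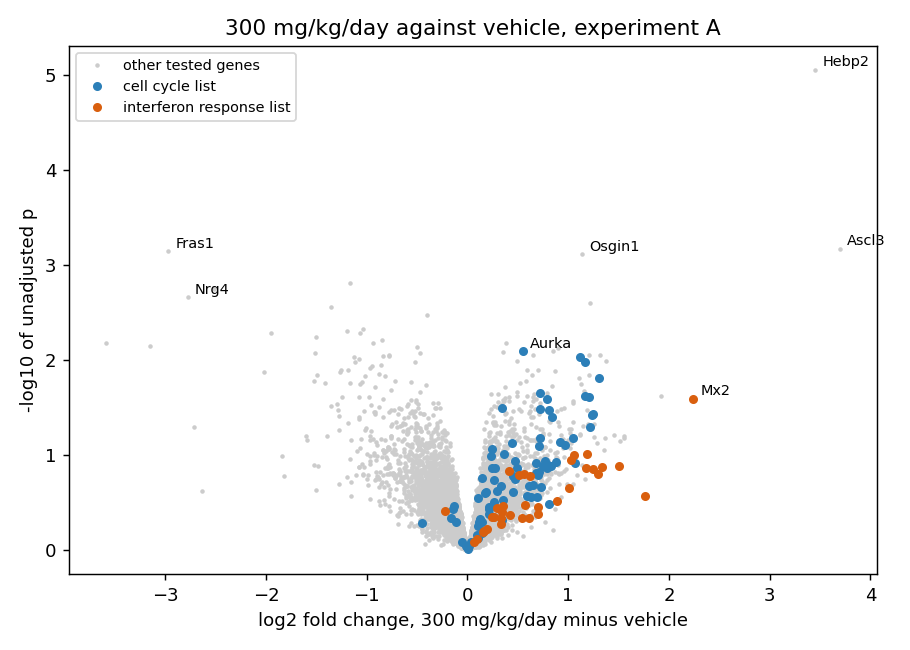
The log2 fold change at 300 mkd (x axis) is plotted against the -log10 of the unadjusted p (y axis) for the 11323 genes tested, 1 point per gene. Hebp2 stands highest, and the cell cycle points (blue) lie mostly to the right of 0, with 75 of 83 above it.

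Hebp2 had the smallest p of all genes tested. In the vehicle rats 1 to 5 its level was 1.47, 0.508, 0.718, 0.572 and 0.919 CPM, from 14 to 42 reads. In the rats 1 to 5 at 300 mkd it was 8.27, 0.868, 15.1, 7.46 and 14.3 CPM, from 22 to 425 reads. Replicates 1, 3, 4 and 5 lay above every vehicle rat, while replicate 2 lay within the vehicle range, so the groups overlapped. The log2 fold change was 3.45 ± 0.62 (SE, n = 5 per group; edgeR adjusted p = 0.101). Without replicate 2 of the 300 mkd group, Hebp2 passed the criteria with an edgeR adjusted p of 0.00317. In DESeq2 its adjusted p was 7.35e-06, and over 17 alternative settings the adjusted p ranged from 7.35e-06 to 0.932. With only the vehicle and 300 mkd rats in the fit, the edgeR adjusted p was 0.921.

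Across the other doses the Hebp2 level did not follow a single order. It averaged 1.01 ± 0.46 CPM at 30 mkd and 0.600 ± 0.177 CPM at 100 mkd (SD, n = 5 each), and in no rat of those groups exceeded 1.76 CPM. At 1000 mkd the rats 1 to 5 had 2.15, 11.1, 0.65, 4.78 and 5.55 CPM. The 1000 mkd level passed the criteria against vehicle (log2 fold change 2.54, edgeR adjusted p = 0.00337). It did not pass the test against 300 mkd (log2 difference, 300 minus 1000, of 0.92 ± 0.54, edgeR adjusted p = 0.206). Against the vehicle, 30 and 100 mkd groups as 1 reference, 316 genes had an unadjusted p under 0.05 (2.79%) and Hebp2 was the 1 gene called (0.00883%), with a log2 fold change of 3.54 ± 0.42 and an edgeR adjusted p of 0.000162. Hebp2 was the gene called again when each 300 mkd rat was left out in turn, with edgeR adjusted p from 3.17e-06 to 0.00185.

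In experiment B the high Hebp2 rats were not limited to treated animals. The vehicle males 1 to 5 had 2.49, 0.514, 5.44, 0.981 and 2.46 CPM. The males at 300 mkd had 1.37, 1.44, 0.81, 0.531 and 6.35 CPM, and the groups overlapped. The log2 fold change there was -0.19 ± 0.80. The test of the difference between the experiments gave a log2 difference, A minus B, of 3.64 ± 1.05, with an unadjusted p of 0.00114 and an edgeR adjusted p of 1.00. Hebp1, the related heme-binding gene, ranged from 28.7 to 41.8 CPM in the 10 rats of experiment A and had a log2 fold change of 0.04 ± 0.19.

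Ascl3, which encodes a basic helix-loop-helix transcription factor, had the next smallest p. Its vehicle levels were 0.0702, 0.0363, 0.151, 0.271 and 0.0984 CPM, from 1 to 9 reads. At 300 mkd the levels in rats 1 to 5 were 2.22, 0.197, 1.5, 1.69 and 2.93 CPM, from 5 to 87 reads. Replicate 2 was again within the vehicle range, and the others lay above it. Its log2 fold change was 3.70 ± 0.95 (edgeR adjusted p = 1.00). High and low rats also occurred at 30 mkd, where rats 2 and 4 had 1.62 and 1.33 CPM and the others at most 0.22 CPM. At 100 mkd rats 2, 3 and 4 had 3.42, 1.64 and 1.5 CPM, the first of them above every 300 mkd rat, and the 1000 mkd group averaged 1.22 ± 0.60 CPM (SD, n = 5). In experiment B no vehicle or 300 mkd male exceeded 0.334 CPM. Over the 25 rats of experiment A, Hebp2 and Ascl3 had a Pearson correlation of 0.42 and a Spearman correlation of 0.29, a description over libraries that share doses.

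**Figure D2:**
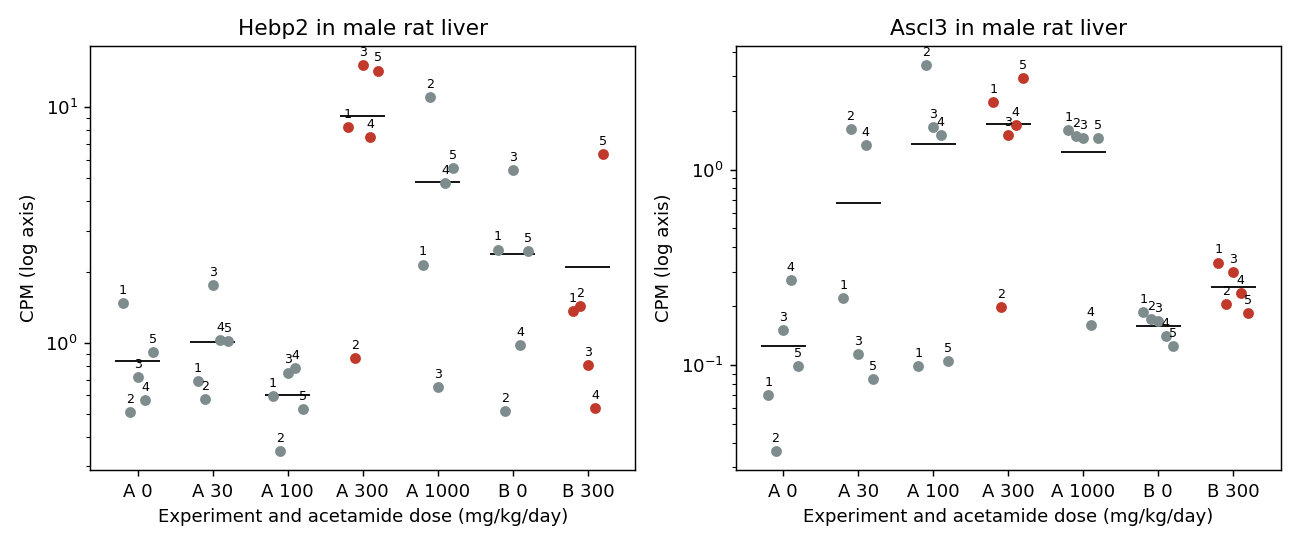
Hebp2 (left) and Ascl3 (right) levels in CPM on a log axis are shown by experiment and dose, 1 numbered point per rat, with 300 mkd in red and the mean as a bar. At 300 mkd in experiment A replicate 2 sits with the vehicle rats for both genes, at 0.868 and 0.197 CPM.

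RGD1560242, the other DESeq2 call, was not tested by edgeR because of its low counts. At 300 mkd only replicate 3 had reads, 127, and the 5 vehicle rats had 0. At 100 mkd rats 1 and 2 had 90 and 138 reads. In experiment B 18 of 30 males had more than 3 reads, including vehicle rats 1 and 2 with 135 and 170. The call therefore came from 1 rat, and reads were also present in vehicle rats of the other experiment.

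Promoter sequences are shown for Hebp2, for the 3 cell cycle genes with the smallest p and for the interferon response gene with the smallest p that had a promoter in the table, since the genes of each list were high together in 1 rat. They were taken from RefSeq, assembly GRCr8, from 250 bases before to 50 after the gene start, and capitals mark matches to any of 6 motifs on either strand. The letters searched were CCAAT (the box bound by NF-Y), TTTGAA (the element of mitotic gene promoters), TTTGGCGC for one form of the E2F site with GGCGGGAA for another, TTTCNNTTT (part of the interferon element) and TGACNNNGC (the core bound by NRF2). They can overlap, as do the 2 TTTCNNTTT matches in Oas1b, and letters on the other strand read as the reverse complement.
Hebp2, chr1:15021474-15021773, minus strand: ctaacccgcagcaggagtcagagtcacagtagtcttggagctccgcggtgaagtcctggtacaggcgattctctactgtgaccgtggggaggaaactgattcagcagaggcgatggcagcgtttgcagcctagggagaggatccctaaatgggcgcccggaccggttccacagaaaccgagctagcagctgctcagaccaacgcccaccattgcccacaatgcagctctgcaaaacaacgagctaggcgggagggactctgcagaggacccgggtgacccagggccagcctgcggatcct
Aurka, chr3:181560720-181561019, minus strand: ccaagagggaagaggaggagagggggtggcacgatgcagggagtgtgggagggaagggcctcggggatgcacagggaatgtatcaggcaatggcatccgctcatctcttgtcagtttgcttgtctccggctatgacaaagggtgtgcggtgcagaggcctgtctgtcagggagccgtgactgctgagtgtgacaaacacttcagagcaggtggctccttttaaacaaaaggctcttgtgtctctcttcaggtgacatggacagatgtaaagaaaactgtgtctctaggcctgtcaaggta
Exo1, chr13:90341768-90342067, plus strand: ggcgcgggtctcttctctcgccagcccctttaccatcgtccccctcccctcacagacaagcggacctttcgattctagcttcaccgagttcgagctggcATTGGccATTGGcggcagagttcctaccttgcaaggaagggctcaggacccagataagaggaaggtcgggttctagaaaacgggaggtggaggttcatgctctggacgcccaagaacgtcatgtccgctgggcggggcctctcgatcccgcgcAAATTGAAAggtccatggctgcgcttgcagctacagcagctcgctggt
Mcm6, chr13:42404303-42404602, minus strand: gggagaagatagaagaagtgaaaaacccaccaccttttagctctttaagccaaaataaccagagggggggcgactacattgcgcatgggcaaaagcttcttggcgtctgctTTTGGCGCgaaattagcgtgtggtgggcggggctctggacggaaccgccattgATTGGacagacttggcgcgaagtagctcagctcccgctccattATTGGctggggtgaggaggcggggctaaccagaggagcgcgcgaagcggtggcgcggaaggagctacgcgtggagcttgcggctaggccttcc
Oas1b, chr12:41395803-41396102, minus strand: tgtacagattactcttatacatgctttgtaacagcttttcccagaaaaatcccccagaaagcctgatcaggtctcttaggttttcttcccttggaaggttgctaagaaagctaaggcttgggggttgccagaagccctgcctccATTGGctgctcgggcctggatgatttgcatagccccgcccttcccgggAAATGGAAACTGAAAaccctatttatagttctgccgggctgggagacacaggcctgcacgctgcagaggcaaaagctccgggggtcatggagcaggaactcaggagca
Hebp2 and Aurka held 0 matches. Of the 83 cell cycle genes tested, 69 had a promoter in the table, and 68.1% of these held CCAAT and 46.4% held TTTGAA, against 37.6% and 18.2% of all 27457 promoters. Of the 35 interferon response genes tested, 25 had a promoter, and 76% held TTTCNNTTT against 11.5% of all promoters. A match is a description of the letters and not a measured binding site.

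Cell cycle genes were higher in some rats at 300 mkd. Of 83 tested genes on the list, 0 were DEGs, 14 had an unadjusted p under 0.05 and a higher level, and 0 a lower one, against 0.945% and 0.98% of all genes. The median log2 fold change of the list was 0.45, against 0.00 for all tested genes. The leading members were Aurka, a mitotic kinase (log2 fold change 0.55 ± 0.19), Exo1, a repair exonuclease (1.12 ± 0.39), and Mcm6, a subunit of the replicative helicase (1.16 ± 0.42). Their edgeR adjusted p was 1.00.

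The cell cycle values were uneven among the rats. The mean log2 CPM of the list was 1.24, 1.63, 1.20, 1.67 and 2.17 in the vehicle rats. It was 1.27, 2.83, 1.57, 2.21 and 2.08 in the rats 1 to 5 at 300 mkd. Replicate 2 was highest of the 10 rats for 62 of the 83 genes and above every vehicle rat for 69, while replicate 1 was above every vehicle rat for 1. Without replicate 2 the count of 14 fell to 2, and without vehicle replicate 5, the highest vehicle rat, it was 45. Without replicate 1 of the 300 mkd group it was 34, and over all 10 rats left out in turn it ranged from 2 to 45. Among all genes, in either direction, 218 had such a p with every rat in the fit. That total became 258 without replicate 2, 482 without vehicle replicate 5 and 398 without replicate 1 of the 300 mkd group.

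Mki67, the proliferation marker, had 3.58, 6.57, 2.68, 7.04 and 13.1 CPM in the vehicle rats. At 300 mkd it had 3.1, 21.9, 6.25, 11.8 and 12.5 CPM, and the groups overlapped. Its log2 fold change was 0.75 ± 0.48 (edgeR adjusted p = 1.00). Top2a, the topoisomerase of dividing cells, and Ccnb1, the mitotic cyclin, were also highest in replicate 2, at 21.5 and 15.8 CPM. Cdkn1a, which encodes the cell cycle inhibitor p21, had 131 CPM in replicate 2 and 109 CPM in vehicle replicate 4. Its log2 fold change of 0.17 ± 1.00 became -1.09 without replicate 2 of the 300 mkd group.

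With the vehicle, 30 and 100 mkd groups together as the reference, 45 of the 83 cell cycle genes had an unadjusted p under 0.05 and a higher level at 300 mkd, against 2% of all genes. None was called, and Exo1 came nearest with an edgeR adjusted p of 0.370. Without replicate 2 the 45 became 12, and without the other 300 mkd rats it ranged from 40 to 52. Over the 6 fits with a rat left out, 255 to 509 of all genes had an unadjusted p under 0.05 in either direction. At 1000 mkd 59 of the 83 genes were called higher than vehicle, against 14% of all genes, and 31 were called lower at 300 than at 1000 mkd, against 12.9%. The comparisons at 300 and 1000 mkd share the vehicle rats. In experiment B 1 of 83 had an unadjusted p under 0.05 and a higher level, against 0.628% of all genes. The list median there was 0.04.

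**Figure D3:**
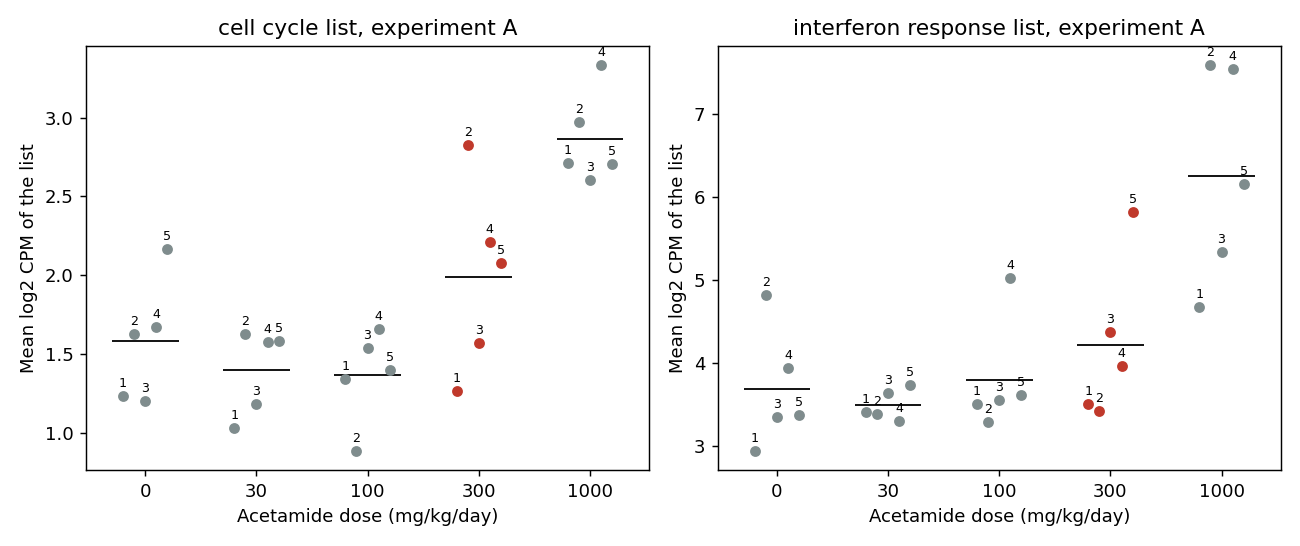
Cell cycle (left) and interferon response (right) list means, in log2 CPM, are shown by dose in experiment A, 1 numbered point per rat, with 300 mkd in red and the mean as a bar. Replicate 2 is highest of the 300 mkd rats for cell cycle, at 2.83, and replicate 5 for interferon response, at 5.82.

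Interferon response genes were high in a different rat. The list mean was 2.94, 4.83, 3.35, 3.94 and 3.38 in the vehicle rats and 3.51, 3.42, 4.37, 3.97 and 5.82 at 300 mkd. Replicate 5 was the highest of the 10 rats for 34 of 35 tested genes, while replicate 2 was above every vehicle rat for 0. Rat 4 of the 100 mkd group also had a list mean above every vehicle rat, at 5.02. Mx2, an antiviral GTPase, was the 1 member of 35 with an unadjusted p under 0.05, against 0.945% of all genes higher, with 4.1, 36.1, 14.9, 20.2 and 26.5 CPM in the vehicle rats. At 300 mkd it had 26.9, 24.1, 89.7, 48.4 and 292 CPM, a log2 fold change of 2.24 ± 0.94 (edgeR adjusted p = 1.00). Its level in rat 4 at 100 mkd was 228 CPM. Rsad2, which encodes the antiviral protein viperin, had 19.7 CPM in replicate 5 and at most 7.33 CPM in the other 300 mkd rats. Without vehicle replicate 2, the vehicle rat with the highest list mean, 12 members had an unadjusted p under 0.05, and without replicate 5 of the 300 mkd group 0 did. In those fits 225 and 201 of all genes did, in either direction. The log2 fold change was above 0 for 34 of the 35 genes, with a median of 0.56, and 7 had an unadjusted p under 0.05 and a higher level against the vehicle, 30 and 100 mkd groups together, beside 2% of all genes. At 1000 mkd 30 were called higher than the same vehicle rats, against 14% of all genes. Replicate 5 also had the highest macrophage marker mean, 6.99 against 5.47 to 6.83 in the vehicle rats, and was highest for 9 of 12 of those markers. The T and NK cell marker mean was also highest there, at 0.825 against 0.163 to 0.374 in the vehicle rats, and replicate 5 was highest for 6 of 11 of those markers. Rat 4 at 100 mkd had a macrophage marker mean of 6.72 and a T and NK cell marker mean of 0.845. The part of these cells in the interferon values was not tested.

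Erythroid markers lay lower in some rats. Of 8 tested, 0 had an unadjusted p under 0.05 against vehicle, with a median log2 fold change of -0.71. Hbb, a beta globin gene, had 203, 192, 223, 162 and 247 CPM in the vehicle rats and 146, 99.2, 131, 154 and 66.3 CPM at 300 mkd. The groups did not overlap, and the log2 fold change was -0.79 ± 0.43 (edgeR adjusted p = 1.00). Against the vehicle, 30 and 100 mkd groups together, 4 of the 8 had an unadjusted p under 0.05 and a lower level, against 0.795% of all genes, and this fell to 1 without replicate 2, 4 or 5. In that reference, 30 mkd replicate 5 stood apart, with a marker mean of 3.54 against 0.852 to 1.95 in the other rats and 898 CPM of Hbb. Without it the count was 1 of 8, against 0.999% of all genes. At 1000 mkd 5 of the 8 were called lower than the same vehicle rats, against 7.45% of all genes, with a list median of -2.22. In experiment B the list lay the other way at 300 mkd, with a median log2 fold change of 0.55. There 2 of 6 tested markers were higher at an unadjusted p under 0.05, against 0.628% of all genes. In bulk liver, fewer cells of a type and less RNA per cell cannot be told apart.

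Of the other genes with small p-values at 300 mkd, Osgin1, an oxidative stress response gene, had 149, 158, 182, 133 and 346 CPM in the vehicle rats. It had 273, 274, 728, 352 and 501 CPM at 300 mkd, so that the overlap came from vehicle replicate 5. Its log2 fold change was 1.14 ± 0.30. The 30 and 100 mkd groups averaged 354 ± 30 and 404 ± 133 CPM, beside 426 ± 193 CPM at 300 mkd (SD, n = 5 each), and against the vehicle and these groups together the log2 fold change was 0.49 ± 0.23. Abcb1b, the multidrug efflux transporter, had 4.38, 5.55, 5.26, 7.5 and 8.17 CPM in the vehicle rats and 9.79, 15, 14.4, 10.8 and 7.62 CPM at 300 mkd. Only replicate 5 lay within the vehicle range, and the log2 fold change was 0.90 ± 0.31, beside 3.25 at 1000 mkd, where it was called. Hsbp1l1 and Dclre1c had log2 fold changes of 1.22 ± 0.36 and 0.39 ± 0.13. Hsbp1l1 had only 2 to 6 reads per vehicle rat and 6 to 13 per rat at 300 mkd. It averaged 0.135, 0.239, 0.269 and 0.321 CPM at 0, 30, 100 and 300 mkd. Dclre1c averaged 5.43, 5.83, 7.31 and 7.08 CPM in the same order. None was called.

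Among genes with lower means at 300 mkd, several were spread widely among the vehicle rats. Fras1, an extracellular matrix gene, had 6.7, 1.74, 0.87, 0.271 and 0.262 CPM in the vehicle rats and 0.517, 0.197, 0.15, 0.135 and 0.236 CPM at 300 mkd. Nrg4, an epidermal growth factor family ligand, had 11.4, 9.44, 2.68, 1.66 and 0.262 CPM in the vehicle rats and 0.376 to 1.07 CPM at 300 mkd. Both genes were highest in vehicle rats 1 and 2, and for both the groups overlapped. The log2 fold changes were -2.97 ± 0.77 and -2.78 ± 0.81. Ccdc92, Unc5d, Sptb and Yars had log2 fold changes of -2.52, -1.36, -1.17 and -0.40, and none was called.

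Genes whose groups did not overlap were few. All 5 rats at 300 mkd lay above all 5 vehicle rats for 12 genes (0.106%) and below them for 15 genes (0.132%), in all 27 genes (0.238%). With a mean of at least 1 CPM, the largest higher differences were RT1-CE16, a class I histocompatibility gene (0.79 ± 0.46), Exog (0.38 ± 0.17), Kctd17 (0.29 ± 0.19) and Rad50, a double-strand break repair gene (0.26 ± 0.11). Idua, Ing2, Tmem209 and Cdk13 followed, from 0.21 down to 0.12. Among the lower ones, Slc12a3, a sodium chloride cotransporter, had 2.7, 5.59, 2.53, 5.09 and 2.43 CPM in the vehicle rats and 1.07, 1.66, 1.24, 1.76 and 0.742 CPM at 300 mkd. Alox15, a lipoxygenase, and N4bp2l1 had log2 fold changes of -1.51 ± 0.53 and -0.94 ± 0.31. Dgat2, Glud1 and Arl1 lay between -0.26 and -0.22.

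**Figure D4:**
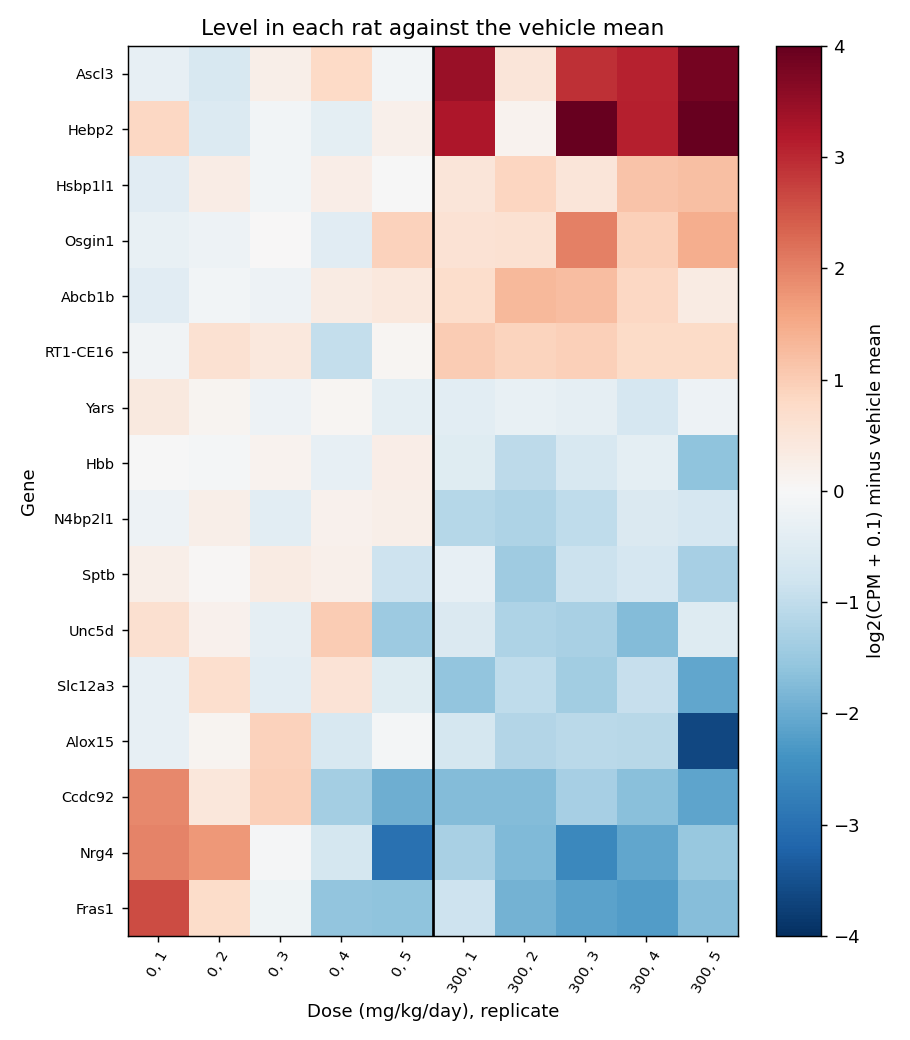
Each row is a gene named by size or smallest p with a log2 fold change of at least 0.4 in either direction, each column a rat of the vehicle (left of the line) or 300 mkd group, and color gives log2(CPM + 0.1) minus the vehicle mean. Hebp2 and Ascl3 are high in 4 of 5 treated rats, and Fras1 and Nrg4 are highest in vehicle rats 1 and 2.

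The other lists are given by their genes with an unadjusted p under 0.05, to be read against 0.945% of all genes higher and 0.98% lower. Among 29 NRF2 targets 4 were higher, including Osgin1 and Ephx1, an epoxide hydrolase (0.52 ± 0.20), and 1 lower. The lower one was Slc7a11, with 0 to 10 reads per rat. The log2 fold change was above 0 for 17 of the 29 NRF2 targets, with a list median of 0.03. Against the vehicle, 30 and 100 mkd groups together 2 of them were higher, beside 2% of all genes. Among 27 p53 targets 3 were higher, including Phlda3 (0.69 ± 0.29), and 1 lower. Phlda3 averaged 12.8, 18.2, 17.7 and 20.5 CPM at 0, 30, 100 and 300 mkd. Against the vehicle, 30 and 100 mkd groups together its log2 fold change was 0.36 ± 0.23. In that comparison 1 p53 target was higher, Ckap2, beside 2% of all genes. Acaca and Acly, enzymes of fatty acid synthesis, were among 3 lower of 39 cholesterol and fatty acid synthesis genes, at -1.02 ± 0.39 and -0.91 ± 0.36, and both were highest in vehicle rats 1 and 3. Of 42 PPARalpha targets 0 passed in either direction, though 1 of 42 had a log2 fold change above 0 and the list median was -0.18. Serine synthesis and ATF4 response genes had 2 lower of 28, Slc7a11 and Cebpb, with a median of -0.26. Cebpb had 158 CPM in vehicle replicate 4 and 42.9 to 71.3 CPM in the other vehicle rats. Against the vehicle, 30 and 100 mkd groups together that list had 0 lower and 1 higher, with a median of -0.08. Acute phase proteins had 1 lower of 31 against vehicle. Xenobiotic P450 and transporters had 1 higher of 43, Abcb1b, heme and iron handling 1 higher of 34, Hebp2, and fasting and glucose metabolism 1 higher of 30, Socs2 (1.19 ± 0.57). Socs2 averaged 8.99 CPM in the vehicle rats and 21.8, 31.7 and 20.6 CPM at 30, 100 and 300 mkd. Against the vehicle, 30 and 100 mkd groups together its log2 fold change was 0.16 ± 0.45. Amino acid catabolism and urea cycle, circadian clock, and heat shock and chaperone genes had 0 of 48, 0 of 16 and 0 of 34. Markers of macrophages, T and NK cells, B cells, neutrophils, cholangiocytes, stellate cells, endothelial cells, acinar pancreas and mesothelium also had 0, with list medians from -0.43 to 0.51.

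Of the genes set for description, none besides Hebp2 was called by any tool. Nqo1, a quinone reductase, had 44.9 CPM in replicate 5 and 5.88 to 12.7 CPM in the other 300 mkd rats, with a log2 fold change of 0.20 ± 0.61. Cyp2b1, Cyp1a1, Lepr, Acot1 and Phgdh had log2 fold changes of -0.47, -0.82, -0.50, -0.68 and -0.43. Pcna, the replication clamp, had a log2 fold change of 0.27 ± 0.18.

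The 300 and 1000 mkd groups were far apart. Of 11323 genes 2207 differed (19.5%), 1458 lower at 300 mkd (12.9%) and 749 higher (6.61%). Mki67 was lower at 300 mkd by a log2 difference of -1.28 ± 0.47 (edgeR adjusted p = 0.0457), and Mx2 by -2.99 ± 0.97 (edgeR adjusted p = 0.0239). Osgin1 was higher at 300 than at 1000 mkd, by 0.87 ± 0.29 (edgeR adjusted p = 0.0297).

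In experiment B males, 300 mkd gave 0 DEGs of 11304 genes tested and 159 genes with an unadjusted p under 0.05 (1.41%), 71 higher (0.628%) and 88 lower (0.778%). The response at 300 mkd differed between the experiments for 0 of 11579 genes after adjustment and for 117 at an unadjusted p under 0.05 (1.01%). DESeq2 called 1, RGD1560242. The experiments share no rats, and they differ in strain (Hsd:WI and Crl:WI) and age range, so that experiment, strain and age cannot be told apart in this test. Of the 214 genes with an unadjusted p under 0.05 in experiment A that were tested in both, 147 (68.7%) had the same sign in B, against 57.1% of all 11190 genes tested in both. Of these, 8 also had an unadjusted p under 0.05 in B with the same sign, beside 101 of all 11190 genes, and all 8 were lower. They were Map1b, Spsb1, Ptk7, Col7a1, Otub2, Stat3, Yars and Pptc7, chosen after their values were seen. Map1b, a microtubule-associated protein, had -1.27 ± 0.47 in A and -2.04 ± 0.72 in B, and Yars, the tyrosyl-tRNA synthetase, -0.41 ± 0.12 and -0.32 ± 0.11. Stat3, the cytokine-activated transcription factor, had -0.51 ± 0.25 and -0.60 ± 0.20. In experiment A Stat3 averaged 226 ± 124 CPM in the vehicle rats and 158 ± 35 CPM at 300 mkd (SD). Map1b averaged 0.79 ± 0.58 and 0.32 ± 0.08 CPM there. The 300 mkd rats below every vehicle rat in A numbered 0 for Stat3 and Otub2, 1 for Map1b and 2 for Yars and Pptc7. They numbered 3 for Ptk7 and 4 for Col7a1 and Spsb1.

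**Figure D5:**
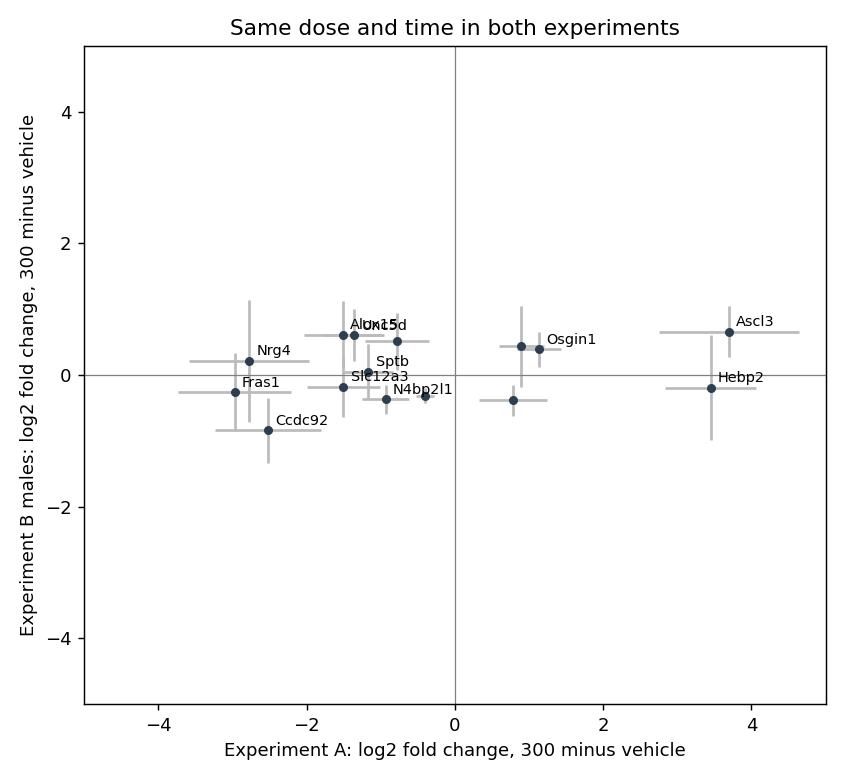
The log2 fold change at 300 mkd in experiment A (x axis) is plotted against that in experiment B males (y axis) for the genes named by size or smallest p with a log2 fold change of at least 0.4 in either direction in A, with bars of 1 SE. Hebp2 lies at 3.45 in A and -0.19 in B.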

How the data were processed

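Liver RNA of experiment A (25 rats) and of day-matched experiment B males (30 rats) was analysed. According to the methods, the authors prepared stranded mRNA libraries, trimmed reads with Trimmomatic, aligned them with Bowtie2 to Rn6 and counted genes with HTSeq. The deposited values are raw read counts, and tool versions are not given in the sources used here. HTSeq summary lines, 41.4% to 67.1% of entries in the experiment B males used, were left out, and 0 sample columns were left out. Counts were tested with edgeR 4.0.16 (TMM, filterByExpr, quasi-likelihood F-test, R 4.3.3) on all 25 rats, with DESeq2 1.42.0 and limma 3.58.1 as alternatives. Log2 CPM used a prior count of 2. SE was the log2 fold change over the root of F. The test was checked on simulated counts. Named genes were the 8 largest non-overlapping differences per direction with a mean of at least 1 CPM, the 6 smallest p per direction, any tool's calls, the 2 smallest p per list and 15 set genes. The members, 14 pathway lists and 11 marker lists were chosen with earlier results of these data known. The result for 1 gene is not reported here.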

Additional observations from a re-analysis of the deposited data

Results flagged for a closer look

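Of 132 groups of 5 rats examined, 13 held 1 rat far from the other 4. The threshold used gives about 1 in 20 for independent, normally distributed values. Many of these genes were chosen from the same rats and share them, so the count cannot be read against that rate. In the vehicle group the highest rat stood apart for Osgin1 (346 CPM), Fras1 (6.7 CPM), Acot1 (1.9 CPM), Lepr (13.9 CPM) and the mean log2 CPM of the NRF2 target list (5.3), and the lowest for Exog (2.11 CPM) and Cdk13 (25.8 CPM). In the 300 mkd group the highest rat stood apart for Ing2 (20.5 CPM), Tmem209 (23.1 CPM), Fras1 (0.517 CPM), Rsad2 (19.7 CPM), Nqo1 (44.9 CPM) and the mean log2 CPM of the acinar pancreas list (1.41).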

How the results depend on the processing

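The count of 0 DEGs at 300 mkd became 2 with DESeq2 and ranged from 0 to 1 with each rat left out, the 1 being Hebp2 without replicate 2 of the 300 mkd group. It was 0 under the other settings. The 218 genes with an unadjusted p under 0.05 became 589 with limma-voom and ranged from 165 to 482 with each rat left out, at 482 without vehicle replicate 5 and 398 without 300 mkd replicate 1. Genes differing between the experiments numbered 1 with DESeq2 (RGD1560242) and 0 to 1 with each 300 mkd rat left out (Ap1m2 without replicate 5). The causes were not tested. Genes different from 1000 mkd ranged from 1957 to 2121 with each 300 mkd rat left out. Signs reversed for uncalled genes only: Acot1 to 0.28 and Nqo1 to -0.072 with limma-voom, and Nqo1 to -0.069 with the replicate block. With each rat left out the log2 fold change ranged from -1.09 to 1.28 for Cdkn1a, -0.029 to 0.10 for Hebp1, -1.03 to 0.64 for Acot1, -0.72 to 0.55 for Nqo1 and -0.87 to 0.25 for Lepr. Of the values of named genes under the alternatives, 668 kept their sign and their side of the criteria, 14 changed sign and 2, both Hebp2, passed them, and 172 list means moved by less than the SD of the vehicle rats and 3 by more. The labels state no pairing. Deviations of same-numbered vehicle and 300 mkd rats correlated at 0.34, -0.19, 0.18, 0.13 and 0.18, and 3 of 5 vehicle rats correlated best with their own number. With the replicate block there were 0 DEGs, 228 genes with an unadjusted p under 0.05, 1 gene against the lower groups together, 2298 against 1000 mkd, and 0 in experiment B and between the experiments. A block by title number, the counts of list members under each setting and the fit without 30 mkd replicate 5 were chosen after seeing the data, and the title block gave 0 DEGs and 220 genes. Cell cycle genes with an unadjusted p under 0.05 numbered 7 with at least 10 counts in every rat and 7 with only the 10 rats in the fit. All genes with such a p numbered 158 and 217 there.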

Other observations

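The genes whose log2 CPM was most like that of Hebp2 over the 25 rats of experiment A, among 10049 others with a mean of at least 1 CPM, were Taf9b, Gen1 and Qrsl1, with Pearson correlations of 0.69, 0.67 and 0.66. They were chosen after the values were seen, and the rats share doses and libraries. Of the protein-coding genes next to Hebp2 in GRCr8, Ccdc28a was tested and had 7.45 ± 1.63 CPM in the vehicle rats and 7.35 ± 1.31 CPM at 300 mkd (SD, n = 5 each). Counting genes at least 2-fold above all 9 other rats on the log2 CPM scale, replicate 5 of the 300 mkd group had 44, of which 15 were on the interferon list, vehicle replicate 4 had 35, led by Arid5a and Cxcl1, and replicate 2 of the 300 mkd group had 17, of which 7 were on the cell cycle list. The other 7 rats had from 2 to 14.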
